A study of Mus musculus with 2 samples.

Results

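SIX-family homeodomain factors, their EYA coactivators and the corepressor Dach1 were examined in RNA-Seq counts of primary chondrocytes and primary dermal fibroblasts. The genes are *Six2*, *Six4*, *Six5*, *Eya1*, *Eya2*, *Eya3*, *Eya4* and *Dach1*. They were found by an exact match of the gene symbol, which gave 8 of the 24421 rows of the count table. The chondrocytes came from rib cartilage of newborn mice, were freed by collagenase and were used at an early passage. The dermal fibroblasts came from dorsal skin of newborn mice and were likewise freed by collagenase. Neither the genotype nor the number of animals behind each culture was given in the sources used here, and no treatment was named. Each cell type was represented by 1 library, so no difference below has a replicate check and no p-value was computed.

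In this network a SIX-family protein binds DNA through a homeodomain, an EYA protein joins it as a coactivator and also carries a phosphatase domain, and a DACH protein can turn the complex toward repression. PAX factors often act upstream. The network is best known from the eye, ear, kidney and skeletal muscle, where SIX-family proteins such as Six4 act at the promoters of myogenic genes through an element called MEF3. A bulk library cannot tell more cells of one type from more RNA per cell.

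Among the 8 genes, 6 had a fold over 2 toward chondrocytes and 0 had one toward dermal fibroblasts. *Eya2*, *Eya1*, *Six4* and *Six2* had the highest folds, between 5.48 and 9.04 with counts under 3 set to 3. *Eya4* and *Dach1* lay just beyond 2-fold. *Six5* and *Eya3*, which had the most counts of their families, were at nearly the same level in both libraries. Over all 15616 genes with more than 3 counts in at least 1 library, 12.1% had a fold over 2 toward chondrocytes and 15.8% toward dermal fibroblasts. All 8 genes passed this filter, *Six2* through its chondrocyte count alone.

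The promoter sequences that bear on these genes are given first, from the RefSeq promoters of GRCm38.p6, which held 6 of the 8 genes. *Eya1* and *Eya2* were not matched. The 250 bases before an annotated start are printed 5′ to 3′ on the strand of the gene. *Six4* and the muscle gene *Myog* are shown since their windows held a MEF3 element (TCAGGTTTC on either strand), which is in capitals. *Six2* is shown as a gene with a higher count in the chondrocyte library, with its CCAAT box (CCAAT on either strand) in capitals, and *Eya3* as a gene at a like level in both libraries, with no match to either motif. They lie at chr12:73113246-73113495 (minus strand, *Six4*), chr1:134289754-134290003 (plus strand, *Myog*), chr17:85688255-85688504 (minus strand, *Six2*) and chr4:132638796-132639045 (plus strand, *Eya3*).
Six4: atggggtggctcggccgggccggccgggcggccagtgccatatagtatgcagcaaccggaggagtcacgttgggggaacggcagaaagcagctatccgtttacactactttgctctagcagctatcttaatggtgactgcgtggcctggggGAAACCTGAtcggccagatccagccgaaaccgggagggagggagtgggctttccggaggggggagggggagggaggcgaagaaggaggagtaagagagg
Myog: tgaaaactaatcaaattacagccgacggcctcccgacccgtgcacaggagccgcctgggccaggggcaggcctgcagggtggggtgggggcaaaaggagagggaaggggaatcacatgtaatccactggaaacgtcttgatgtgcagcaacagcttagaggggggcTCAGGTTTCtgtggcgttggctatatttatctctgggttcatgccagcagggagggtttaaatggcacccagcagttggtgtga
Six2: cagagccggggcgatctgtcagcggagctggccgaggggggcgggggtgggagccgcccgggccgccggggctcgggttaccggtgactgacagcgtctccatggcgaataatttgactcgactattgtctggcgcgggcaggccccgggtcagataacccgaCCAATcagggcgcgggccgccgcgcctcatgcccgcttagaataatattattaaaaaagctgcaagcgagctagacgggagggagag
Eya3: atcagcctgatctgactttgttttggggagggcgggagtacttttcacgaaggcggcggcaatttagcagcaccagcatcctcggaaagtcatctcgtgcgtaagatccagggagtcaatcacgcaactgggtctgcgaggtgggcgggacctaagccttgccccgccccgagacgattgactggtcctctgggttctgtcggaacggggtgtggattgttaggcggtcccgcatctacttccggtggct

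The MEF3 letters were chosen after the sequences had been seen. In *Six4* they read GAAACCTGA, on the strand opposite to the gene, with the first base 99 bases before the start. In *Myog* they lay on the strand of the gene, 84 bases before the start. Among all 32851 promoter windows, 0.387% held MEF3 in these 250 bases and 33.8% held a CCAAT box. Of the 6 genes with a promoter, *Six4* was the 1 gene with a MEF3 match over the whole window, which runs on to 50 bases after the start. Of 3 listed myogenic genes with a promoter sequence, *Myog* was the 1 with a match. A further annotated start of *Six4* lay upstream, and its window held a CCAAT box but no MEF3 match. *Six5*, *Eya4* and *Dach1* held no CCAAT box in any window. Of these genes, *Eya4* and *Dach1* had folds over 2 toward chondrocytes and *Six5* was within 2-fold. Whether either motif bears on the folds was not tested. These matches describe letters and do not show binding.

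The chondrocyte library held 18788599 counts and the dermal fibroblast library 17563724. Counts were scaled with TMM factors of 0.954 and 1.05 and are given as counts-per-million of the scaled library (CPM). All 8 chondrocyte markers were over 2-fold higher in the cells labelled chondrocytes. *Col2a1*, the main collagen of cartilage, was counted 1447098 times there and 0 times in dermal fibroblasts, a fold of 495432 with a floor of 3 counts per library. *Matn1* was the other chondrocyte marker at 0 in dermal fibroblasts. *Acan* had 148105 against 35 counts, *Col11a2* had 106437 against 48 and *Sox9* had 5045 against 342. Among 7 fibroblast markers, 6 were over 2-fold higher in the cells labelled dermal fibroblasts, led by the collagens *Col1a1* (39143 counts in chondrocytes and 322379 in dermal fibroblasts), *Col3a1* (32090 and 273385) and *Col1a2* (34091 and 265777). Markers of other skin cells were mostly higher in dermal fibroblasts. The summed level of 6 keratinocyte markers, led by *Krt14*, *Krt5* and *Dsp*, was 8.98 CPM in chondrocytes and 254 CPM in dermal fibroblasts, with 4 of them over 2-fold higher in the latter. The sum of 4 endothelial markers (*Kdr*, *Cdh5*, *Pecam1* and *Tek*, of which 3 were over 2-fold higher) was 12.4 and 38.3 CPM, and that of 4 macrophage markers (1 over 2-fold higher) was 42.1 and 70.8 CPM. For 4 melanocyte markers, led by *Mitf*, *Dct* and *Pmel*, it was 9.71 and 51.2 CPM, with 3 over 2-fold higher in dermal fibroblasts and *Dct* at 0 in chondrocytes. Of 4 Schwann cell markers, 2 were over 2-fold higher in dermal fibroblasts, among them *Sox10*, while *S100b*, which chondrocytes also express, was 31.4-fold higher in chondrocytes and brought the sums to 157 and 41.1 CPM.

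*Six4* encodes a homeodomain factor that takes part in the formation of skeletal muscle. It lies on chromosome 12 of GRCm38 (73099609 to 73114031). It had 187 counts in chondrocytes against 29 in dermal fibroblasts, which is 10.4 CPM (95% Poisson interval 8.99 to 12.04) and 1.58 CPM (1.05 to 2.26). The fold was 6.62, with a 95% Clopper-Pearson interval from 4.46 to 10.2, wholly beyond 2-fold. All intervals here cover counting error alone, since there was 1 library of each cell type. Sequenced PCR copies carried no molecular identifiers, so reads are not all separate molecules and the intervals may be too narrow. *Six4* shares 1847 bp of its span with *Mnat1*, annotated on the opposite strand, although the exons of both shared 0 bp in the GENCODE vM1 annotation of NCBIM37. *Mnat1*, a subunit of the CDK-activating kinase, had 724 and 368 counts. The sources used here do not say whether the counting used the strand.

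*Six2* is known for keeping nephron progenitors of the kidney undifferentiated. It lies on chromosome 17 (85662736 to 85688254). It had 16 counts in chondrocytes against 2 in dermal fibroblasts, the fewest of the 8 genes in each library. This is 0.893 CPM (0.510 to 1.45) and 0.109 CPM (0.0132 to 0.392). The ratio was 8.22, but its interval ran from 1.93 to 73.7 and so reached below 2-fold. With the 2 counts set to the floor of 3 that was used for every count of genes, the fold was 5.48. The difference rests on few reads.

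*Six5* is broadly expressed and lies beside the myotonic dystrophy kinase gene *Dmpk*. It lies on chromosome 7 (19094544 to 19098549), 722 bp from *Dmpk*. It had 394 counts in chondrocytes against 435 in dermal fibroblasts, or 22.0 CPM (19.9 to 24.3) and 23.6 CPM (21.5 to 26.0). The fold of 0.930 had an interval from 0.810 to 1.07, which includes equality, and it went to 1.01 when the counts were scaled by *Actb*. With total counts as the scale the fold was 0.847 and its interval, from 0.737 to 0.973, lay below equality. Of the 4 genes listed around *Six5*, 3 could be compared and 0 were over 2-fold apart. *Dmpk* had 1391 and 1214 counts and *Dmwd* had 1008 and 884. *Fbxo46*, an F-box protein gene, had 153 and 235.

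**Figure D1:**
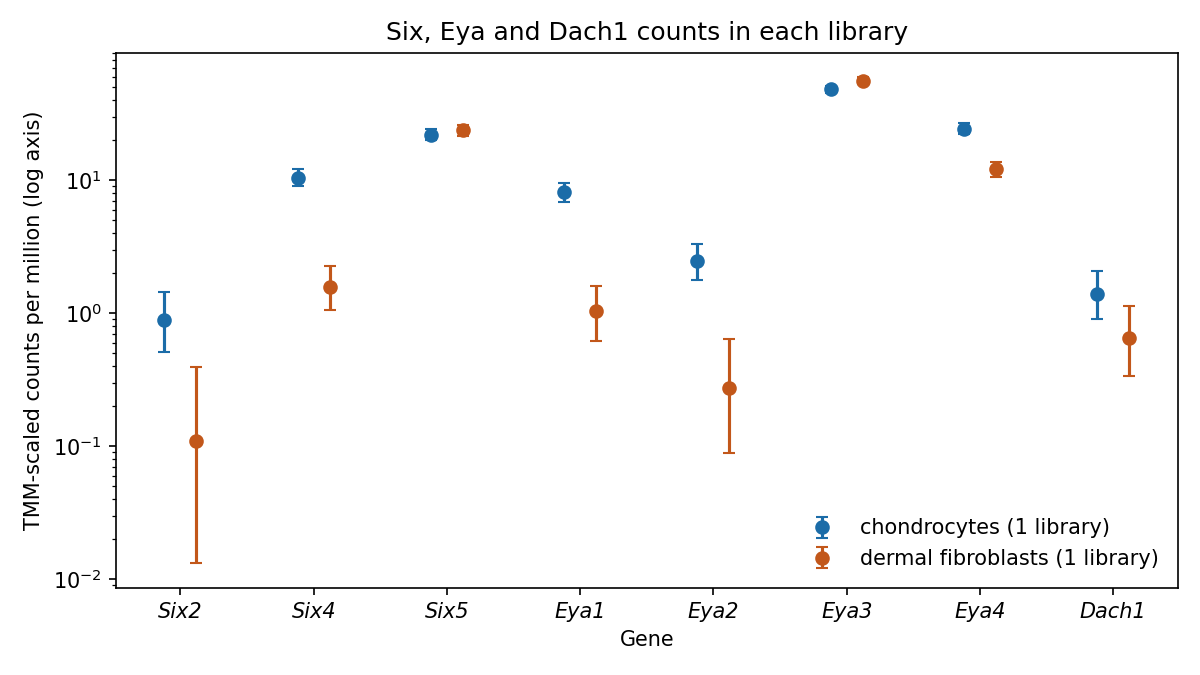
TMM-scaled counts-per-million of each gene (log axis) in the chondrocyte library (blue) and the dermal fibroblast library (orange), with 95% Poisson intervals that cover counting error only. *Six2*, *Six4*, *Eya1*, *Eya2* and *Eya4* are higher in chondrocytes with intervals that do not overlap, *Dach1* has intervals that overlap, and *Six5* and *Eya3* lie close together.

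*Eya1* encodes the coactivator whose human counterpart is mutated in branchio-oto-renal syndrome. It lies on chromosome 1 (14168953 to 14311035). It had 145 counts in chondrocytes against 19 in dermal fibroblasts, or 8.09 CPM (6.83 to 9.52) and 1.03 CPM (0.621 to 1.61). The fold was 7.84 (interval 4.84 to 13.4), wholly beyond 2-fold.

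*Eya2*, another coactivator of SIX-family proteins, lies on chromosome 2 (165595028 to 165771727). It had 44 counts in chondrocytes against 5 in dermal fibroblasts, or 2.45 CPM (1.78 to 3.30) and 0.272 CPM (0.0882 to 0.634). It had the highest fold of the 8 genes, 9.04, with an interval from 3.59 to 29.2 that overlapped those of *Eya1*, *Six2* and *Six4*. The order of these 4 folds was therefore not resolved at this depth.

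*Eya4*, whose human counterpart is mutated in a form of hearing loss, lies on chromosome 10 (23102962 to 23350838). It had 435 counts in chondrocytes against 222 in dermal fibroblasts, or 24.3 CPM (22.0 to 26.7) and 12.1 CPM (10.5 to 13.8). The fold of 2.01 (interval 1.71 to 2.38) lay above equality by more than the counting error. It passed the 2-fold threshold by a narrow margin and fell below it with DESeq2 size factors (1.98) and with total counts (1.83) as the scale.

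*Eya3* is the most broadly expressed EYA gene and lies on chromosome 4 (132639025 to 132724765). It had 862 counts in chondrocytes against 1027 in dermal fibroblasts, or 48.1 CPM (44.9 to 51.4) and 55.8 CPM (52.4 to 59.3). The fold of 0.862 had an interval from 0.787 to 0.945, so that *Eya3* was slightly higher in dermal fibroblasts by more than the counting error. The fold stayed below 1 under each of the 6 scalings, from 0.785 with total counts to 0.938 with *Actb*, but with *Actb* its interval ran from 0.856 to 1.03 and included equality.

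*Dach1* encodes a DNA-binding corepressor and lies on chromosome 14 (97786846 to 98169765). It had 25 counts in chondrocytes against 12 in dermal fibroblasts, or 1.39 CPM (0.903 to 2.06) and 0.652 CPM (0.337 to 1.14). The fold was 2.14 with an interval from 1.04 to 4.67, and it was 1.95 with total counts. Its relative *Dach2* had 15 and 11 counts and a fold of 1.40 (interval 0.601 to 3.37). Both DACH genes had few reads in each cell type.

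**Figure D2:**
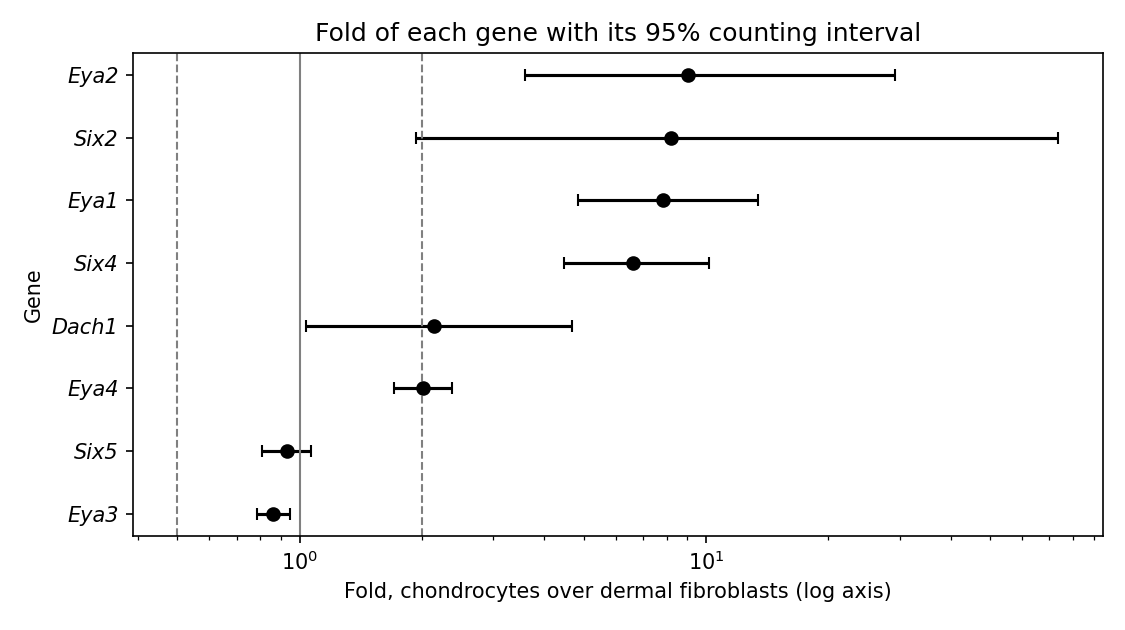
Fold of each gene, chondrocytes over dermal fibroblasts (log axis), as the ratio of scaled counts with its 95% Clopper-Pearson interval. The solid line marks equality and the dashed lines mark 2-fold in each direction. The intervals of *Six4*, *Eya1* and *Eya2* lie wholly above 2-fold, that of *Six2* starts at 1.93, and those of *Eya4* and *Dach1* cross 2-fold.

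The whole interval lay beyond 2-fold for 3 of the 8 genes in chondrocytes and for 0 of them in dermal fibroblasts. Over all genes tested these shares were 6.67% and 9.9%. The median log2 fold of the 8 genes was 1.78, and the median over all 15616 genes was 0.00. When all genes were ordered from the highest fold in chondrocytes down, with the floor of 3 counts, *Eya2* took rank 298, *Eya1* rank 350, *Six4* rank 409 and *Six2* rank 495. These 4 genes were within the top 3.17% of the order. *Dach1* and *Eya4* took ranks 1641 and 1874, and *Six5* and *Eya3* stood near the middle at 55.9% and 61.3% of the order.

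**Figure D3:**
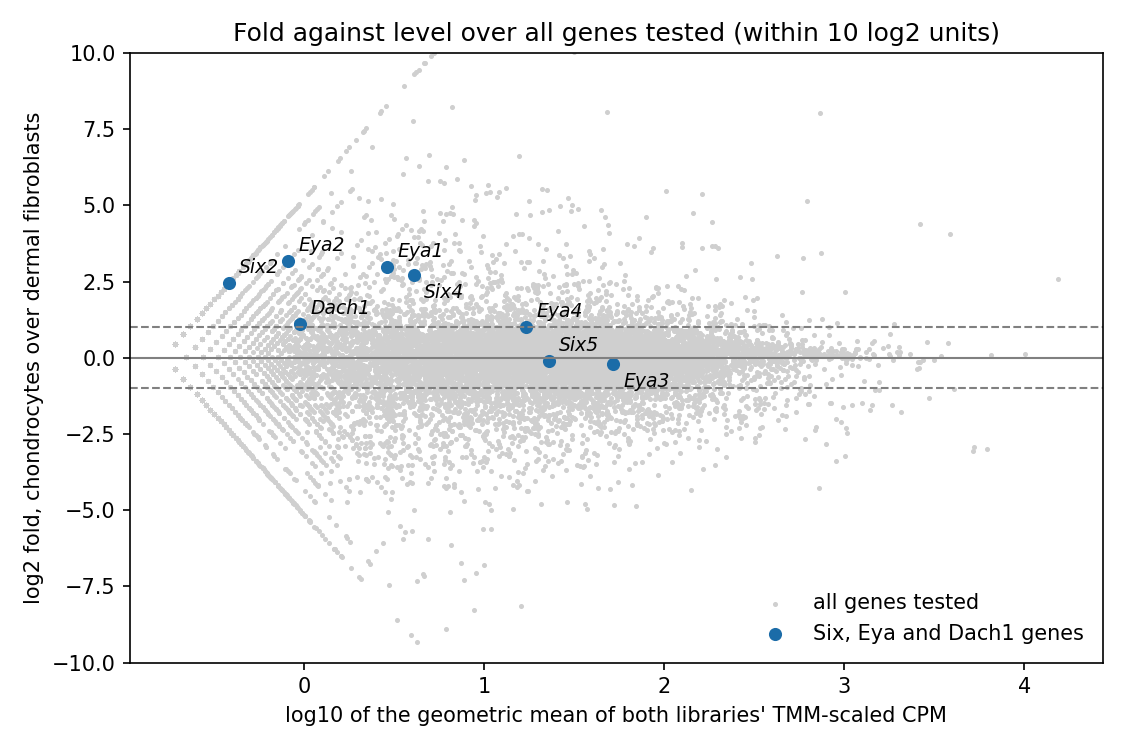
log2 fold (chondrocytes over dermal fibroblasts) against the log10 geometric mean of the scaled counts-per-million for the genes tested (grey), with the SIX-family, EYA and DACH genes in blue. Genes beyond 10 log2 units are not drawn, and the dashed lines mark 2-fold. *Six2*, *Eya2*, *Eya1* and *Six4* lie above the bulk of the genes, and the more abundant *Six5* and *Eya3* lie near 0.

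The make-up of each family within a library does not depend on the scaling between libraries. In chondrocytes *Eya3* took 58.0% of the 1486 EYA counts (95% Clopper-Pearson interval 55.5% to 60.5%), and in dermal fibroblasts it took 80.7% of 1273 (78.4% to 82.8%). *Eya4* took 29.3% (27.0% to 31.7%) and 17.4% (15.4% to 19.6%). *Eya1* took 9.76% (8.30% to 11.4%) and 1.49% (0.901% to 2.32%). *Eya3* was thus the leading EYA gene in both cell types, and the other EYA genes together took a larger part of the counts in chondrocytes. The ratio of *Eya1* to *Eya3* counts was 0.168 in chondrocytes against 0.0185 in dermal fibroblasts, which is a 9.09-fold difference (exact conditional interval 5.55 to 15.7). The ratio of *Eya2* to *Eya3* differed 10.5-fold (4.14 to 34.0) and that of *Eya4* to *Eya3* differed 2.33-fold (1.93 to 2.82). None of these intervals includes 1.

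Among *Six2*, *Six4* and *Six5*, the last took 66.0% of 597 counts in chondrocytes (62.0% to 69.8%) and 93.3% of 466 counts in dermal fibroblasts (90.7% to 95.4%). *Six4* took 31.3% (27.6% to 35.2%) and 6.22% (4.21% to 8.82%). The ratio of *Six4* to *Six5* counts was 7.12-fold higher in chondrocytes (4.66 to 11.2). Scaled for exon length, to CPM per kb of exon, *Six5* stood at 7.70 in chondrocytes and 8.28 in dermal fibroblasts, and *Six4* at 1.86 and 0.280. *Eya3* stood at 8.52 and 9.88 CPM per kb and *Eya4* at 5.79 and 2.88. *Eya1* had 1.85 CPM per kb in chondrocytes, close to *Six4*, against 0.236 in dermal fibroblasts. The lowest length-scaled level in chondrocytes was 0.190 for *Dach1*, below the 0.423 of *Six2*, and the lowest in dermal fibroblasts was 0.0515 for *Six2*. Exon lengths were those of GENCODE vM1.

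**Figure D4:**
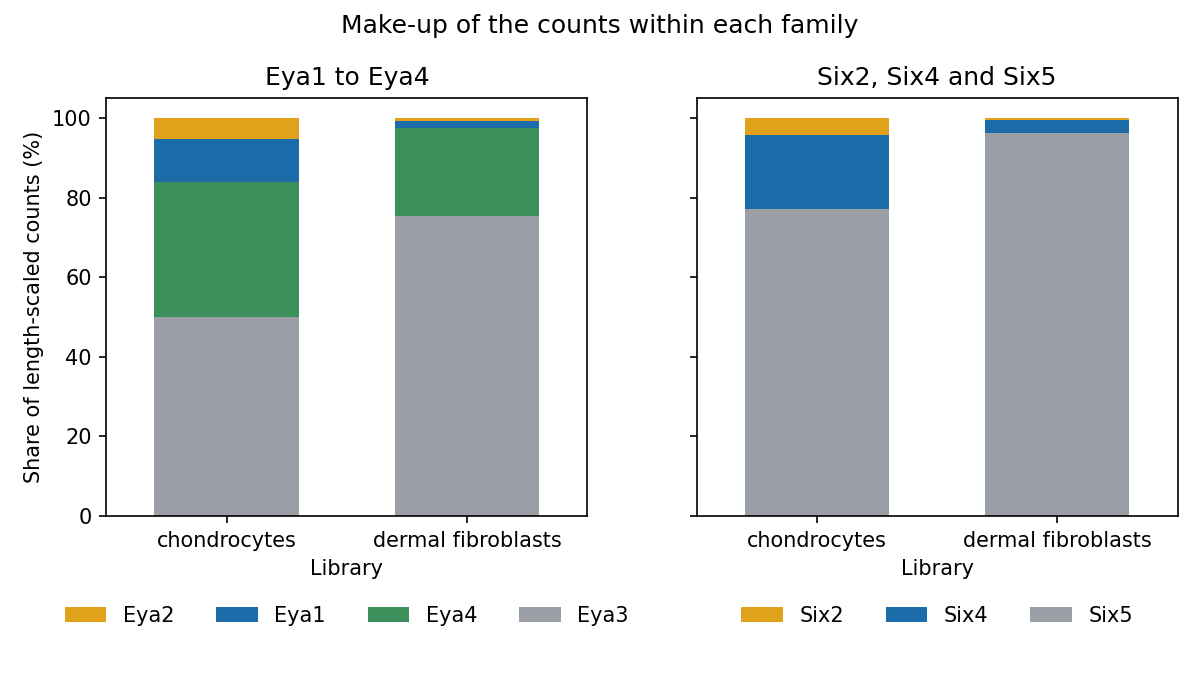
Share of the length-scaled counts (%) taken by each gene within the EYA family (left) and among *Six2*, *Six4* and *Six5* (right), in 1 library of each cell type. *Eya3* takes 49.9% in chondrocytes and 75.5% in dermal fibroblasts, and *Six5* takes 77.2% and 96.1%.

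Sequence shared with other genes was counted, since reads could be split there. Of the 75-base words in the annotated coding transcripts of *Six4*, *Six5*, *Eya1*, *Eya2*, *Eya3*, *Eya4* and *Dach1*, 0 occurred on either strand in a coding transcript of another gene. Of the 2052 words of *Six2*, 1 was shared, with a transcript of *Fgf10*.

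*Six6*, a gene of the eye and pituitary, had 0 counts in both libraries. *Six3*, 36544 bp from *Six2* on chromosome 17, also had 0 counts in both. The upper 95% Poisson limit of a count of 0 was 0.206 CPM in chondrocytes and 0.200 CPM in dermal fibroblasts.

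The PAX genes had few counts. Of 9 PAX genes, 6 passed the filter on low counts, 3 were over 2-fold higher in chondrocytes and 1 was over 2-fold higher in dermal fibroblasts. *Pax7*, a marker of muscle satellite cells, had 120 counts against 4 and was 30.8-fold higher in chondrocytes (interval 11.7 to 115). *Pax3* had 4 and 12 counts and *Pax6* had 8 and 2, with intervals that include equality. *Pax9*, a sclerotome gene, had 6 and 1.

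Cofactors of SIX-family and DACH proteins were divided between the libraries. *Sobp*, which encodes a SIX-binding protein, had 1968 counts in chondrocytes against 74 in dermal fibroblasts and was 27.3-fold higher (interval 21.7 to 34.9). The Groucho-type corepressors were split. *Tle1*, with 908 and 242 counts, was 3.85-fold higher in chondrocytes, and *Tle4*, with 371 and 152 counts, was 2.51-fold higher. *Aes*, a short Groucho relative, had 1641 and 5293 counts and was 3.14-fold higher in dermal fibroblasts. *Tle3* had 998 and 1794 counts, which is within 2-fold. *Tle2* had 408 and 812, also within 2-fold but for total counts as the scale. Of the 7 cofactors, 3 were over 2-fold higher in chondrocytes and 1 in dermal fibroblasts, and their median log2 fold was -0.01. *Ski* (3588 and 4588 counts) and *Skil* (744 and 972), whose proteins share a domain with DACH, were both within 2-fold.

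Genes known to respond to SIX-family and EYA proteins in muscle were over 2-fold higher in chondrocytes in 4 of 5 cases, and in 3 of 5 with total counts as the scale or with a floor of 10 counts. The whole interval lay beyond 2-fold for 2 of them. The median log2 fold of 1.45 was that of *Myf6*, which had 8 and 3 counts and an interval from 0.657 to 16.03 that includes equality. *Myod1* had 2328 and 496 counts and a fold of 4.82 (interval 4.37 to 5.32). *Myog* had 3526 and 1728 counts and a fold of 2.10 (1.98 to 2.22). *Myf5*, with 36 counts against 1, had a ratio of 37.0 (6.23 to 1500). *Mef2c* had 881 and 800 counts. Markers of skeletal muscle cells were measured in the same libraries. Of 12 skeletal muscle markers, 4 of which also stand in the PAX or myogenic lists, 7 were over 2-fold higher in chondrocytes and 0 in dermal fibroblasts. Their summed level was 2148 CPM in chondrocytes and 1477 CPM in dermal fibroblasts, and 0 of the 12 were at 0 in either library. *Tnnt3*, a troponin gene, was 2.76-fold higher in chondrocytes (interval 2.54 to 2.998), *Des*, the gene of desmin, was 2.35-fold higher (2.22 to 2.49) and *Ttn*, the gene of titin, was 2.13-fold higher (1.99 to 2.29). The more abundant contractile genes *Myh3* (7784 and 6497 counts), *Actc1* (7288 and 7970) and *Acta1* (6259 and 4705) were within 2-fold.

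Set against *Myog* in the same library, *Six4* counts were 3.16-fold higher in chondrocytes than in dermal fibroblasts (interval 2.12 to 4.87) and *Eya1* counts were 3.74-fold higher (2.30 to 6.41). The ratio of *Eya4* to *Myog* was 0.123 and 0.128, which differed by less than the counting error. Set against *Myod1*, *Six4* differed 1.37-fold (0.913 to 2.13) and *Eya1* 1.63-fold (0.992 to 2.81), and both intervals include equality. The direction depends on the muscle gene chosen. *Pax7* (120 and 4 counts) and *Myf5* (36 and 1) had higher folds than *Six4* and *Eya1*, so ratios to them would be lower in chondrocytes. Tendon genes also moved, since 3 of 4 tendon markers were over 2-fold higher in chondrocytes, led by *Thbs4* with 3668 and 220 counts and *Scx* with 160 and 58, while the tendon cell gene *Tnmd* had 128 and 193. The summed tendon level was 224 CPM in chondrocytes and 26.9 CPM in dermal fibroblasts, and 0 of these markers were at 0. *Thbs4* alone made up 205 and 11.9 CPM of these sums, so the summed difference rests mostly on this gene. The part of muscle or tendon cells in the folds of the SIX-family and EYA genes was not tested.

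**Figure D5:**
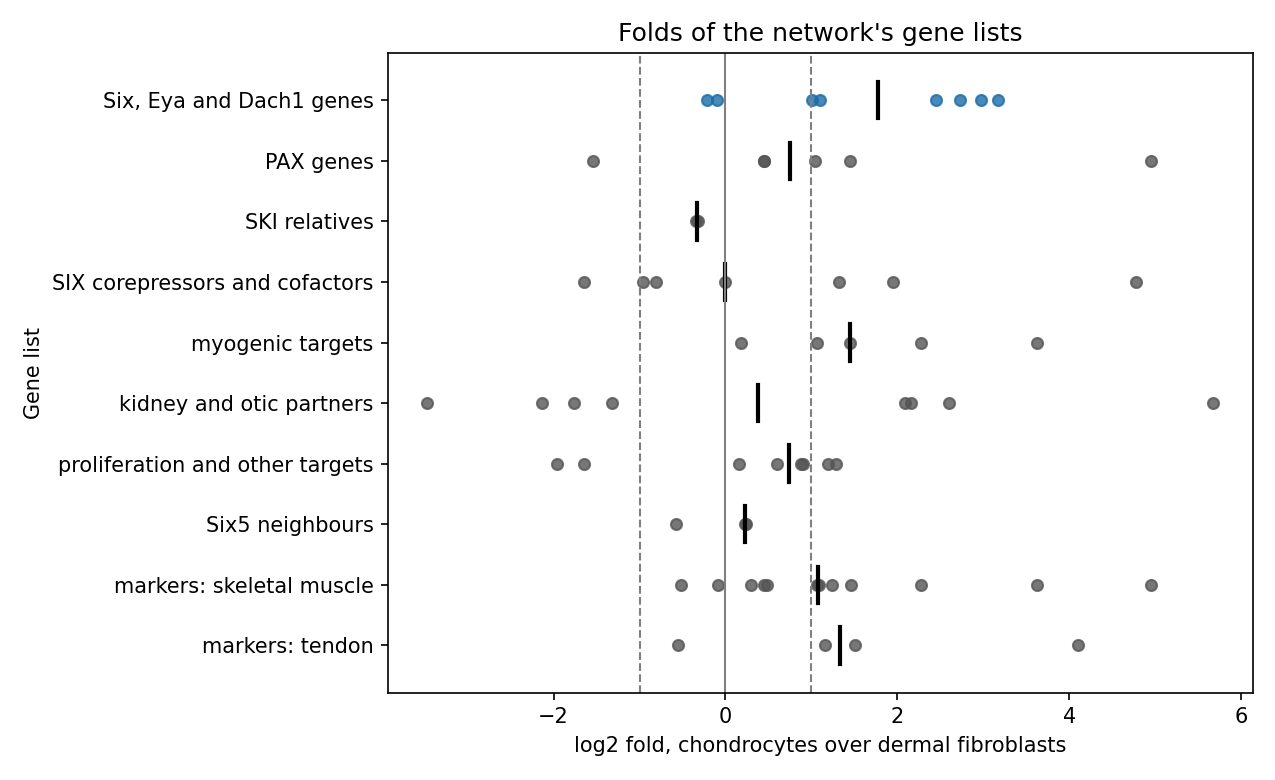
log2 fold (chondrocytes over dermal fibroblasts) of genes with more than 3 counts in at least 1 library, by gene list, with 1 point for each gene and a black bar at the median of each list. Dashed lines mark 2-fold. The SIX-family, EYA and DACH genes (blue) and the myogenic targets have medians of 1.78 and 1.45, and the SIX-family corepressors and cofactors are spread on both sides of 0 with a median of -0.01.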

How the data were processed

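RNA-Seq was carried out by the authors on 1 library of each cell type with stranded mRNA libraries and 75 bp single-end reads. Per the submitters' processing notes, base calling used CASAVA 1.8.2 and mapping to mm10 used TopHat2 2.0.13, Bowtie2 2.2.3 and SAMtools 0.1.19. The deposited values are whole-number read counts per gene symbol without normalization. The counting program, annotation and strand setting are not given in the sources used here.

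Library totals were multiplied by TMM factors (edgeR 4.0.16, R 4.3.3). Counts under 3 were set to 3 before genes were counted at a fold over 2, and genes with more than 3 counts in at least 1 library entered these counts. Levels have 95% Poisson intervals, and folds and shares 95% Clopper-Pearson intervals (scipy 1.17.1). With 1 library per group no test across genes was possible. Interval coverage and recovery of known folds were checked on simulated Poisson counts of the more abundant genes. Such counts follow the model behind the intervals and hold no PCR copies or variation between cultures. The check therefore says nothing of these sources of error or of genes with few counts. Alternatives were other scalings, floors, filters and thresholds.

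The genes and lists were chosen with earlier results of these data known. Every SIX-family, EYA and DACH gene of the set is named in full. Of each list, genes with an interval wholly beyond 2-fold and the 3 most abundant are named, except for some genes that are not reported here, and others were named after their values were seen. Gene positions are RefSeq positions of GRCm38, the assembly behind mm10.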

Additional observations from a re-analysis of the deposited data

How the results depend on the processing

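The values were computed again under each alternative. No paired analysis was possible because there was only 1 library of each kind, and so none could be left out either. Relative to TMM, total counts shifted every log2 fold by -0.14 and *Actb* by 0.12. Of 64 folds of the 8 genes under 8 alternatives, 2 fell beyond their counting interval and 0 changed direction among genes beyond 2-fold. These were *Six2*, which fell to 1.64 when a floor of 10 counts replaced the fibroblast count, and *Eya3* at 0.785 with total counts. Of the 8 genes, 6 had a fold over 2 toward chondrocytes, and 3 did when the whole interval had to lie beyond 2-fold. With total counts *Eya4* (1.83) and *Dach1* (1.95) fell below 2-fold and 4 genes were left, and 5 were left with DESeq2 factors, where *Eya4* was at 1.98, or with a floor of 10 counts. Toward dermal fibroblasts 0 of the 8 passed under any alternative. Their median log2 fold ranged from 1.05 with a floor of 10 counts to 1.91. Over all genes, 1887 were over 2-fold higher in chondrocytes and 2468 in dermal fibroblasts. These became 1035 and 1568 with at least 100 counts summed over both libraries, 713 and 929 with a fold over 4, and 1041 and 1546 with the whole interval beyond 2-fold. Of 408 values for the gene lists, 14 moved out of their counting range or by over 1.5 times. The median log2 fold changed sign for the kidney and ear partners, from 0.38 to -0.20 with a floor of 10 counts, and for the SIX-family corepressors and cofactors, from -0.01 to as much as 0.12 with *Actb*. With a floor of 1 count 5 PAX genes were higher in chondrocytes, and with a floor of 10 counts 1 was. Depth limits *Six2*, *Dach1* and *Eya2* most, with 2, 12 and 5 counts in dermal fibroblasts.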

Other observations

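Partners of SIX-family and EYA genes in kidney and ear development were divided between the cell types. Of the 8 of 9 listed genes that passed the filter, 4 were over 2-fold higher in chondrocytes and 4 in dermal fibroblasts. With a floor of 10 counts these became 3 and 2, and the whole interval lay beyond 2-fold for 3 and 2. *Tbx1* (4 and 18 counts) and *Gata3* (7 and 18) were the genes lost in dermal fibroblasts. *Foxc1*, a forkhead factor of mesenchyme, had 1342 counts in chondrocytes against 27 in dermal fibroblasts and was 51.05-fold higher (interval 34.9 to 77.8). *Foxc2* had 154 and 26 counts and was 6.08-fold higher, and *Wt1* had 66 and 16. *Gdnf*, the ligand whose expression in kidney mesenchyme depends on Eya1, went the other way, with 28 counts in chondrocytes and 318 in dermal fibroblasts, an 11.1-fold difference. *Osr1* was likewise 3.40-fold higher in dermal fibroblasts (171 and 598 counts). *Sall1* had 13 and 2 counts, and *Sall4* had 0 in both.

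Of 8 listed proliferation genes and other SIX-family targets that passed the filter, 2 were over 2-fold higher in each cell type. *Ezr*, which encodes ezrin, had 1088 and 458 counts (2.44-fold higher in chondrocytes), and *Slc12a2*, an ion transporter gene, had 1632 and 735 (2.28-fold). *Igfbp5* had 2954 and 9524 counts and *Fgf10* had 140 and 558, and both were over 2-fold higher in dermal fibroblasts. *Ccnd1*, a cyclin gene, had 2675 and 2472, within 2-fold. With *Actb* as the scale, 4 genes of this list were over 2-fold higher in chondrocytes.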
